A study of Mus musculus with 16 samples.

Results

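The 8 genes described here, Jak1, Jak2, Stat3, Pim1, Socs1, Socs2, Socs3 and Cish, code for the core of the JAK-STAT3 pathway and its feedback. They were chosen by name from the 49315 genes of a table of TPM values. This unit of transcript abundance corrects the reads of a gene for its length and for the size of the library. The length that fits these values joins all annotated exons of a gene, from 2891 bases for Socs3 to 9531 for Socs2. Levels of different genes can therefore be compared only roughly, since a gene with long joined exons can appear too low. The table came from bulk RNA sequencing of intervertebral discs of 16 mice, with 4 tail discs pooled per mouse. Mice were either Adam8EQ mutants (5 injured, 4 intact) or wild type (4 injured, 3 intact), and the series title names DBA as the strain the mutants are set against. The labels give no age, no kind of injury and no time since injury, and they describe the EQ allele no further. No treatment or deletion shared by all groups is named. Names of the libraries start with A8 for 2 injured and 2 intact mutants, with M for the other 3 injured and 2 intact mutants, and with D for the wild type.

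Cytokines of the interleukin-6 family bind receptors that carry no enzyme of their own and rely on Janus kinases, such as JAK1 and JAK2, bound to their inner face. The kinases phosphorylate STAT3, which moves to the nucleus and turns on genes, among them Socs3 and the kinase gene Pim1. SOCS proteins close the loop: SOCS3 and SOCS1 block the kinases at the receptor, while SOCS2 and CIS, the product of Cish, are best known as targets and brakes of STAT5 in growth hormone and related signalling. In the disc, an avascular cartilage-like tissue, interleukin-6 family cytokines are known to be made by resident cells and by cells that enter after damage.

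All 8 genes were in the table once each, and 7 of them reached 1 TPM in every library. Cish reached it in only 4 libraries, all injured, so it passed the filter of the test (at least 1 TPM in at least 3 libraries, met by 24188 genes) only through the groups where it was high. Counts below are therefore over the other 7 genes, and Cish is described apart. The reads implied by the TPM values numbered 10210672 to 24868315 per library. The first principal component of all tested genes took 40.6% of the variance, with intact libraries between -66.9 and -40.2 and injured mutants between 39.6 and 97.8. Injured wild-type mice 1 and 2, at -42.6 and -23.2, lay in or near the intact range, and mice 3 and 4, at 84.9 and 41.8, within that of the injured mutants. Summed levels of 6 macrophage markers followed the same split, and no marker of the list was at 0 in every library. They reached 246.9 and 376.8 TPM in injured wild-type mice 1 and 2 against 3493 and 2313 in mice 3 and 4. Intact libraries held 151.9 to 213.2 TPM and injured mutants 774.9 to 7655. Of these markers Lyz2 alone had a mean of 1102 TPM in the injured wild type and 1912 TPM in injured mutants. Csf1r had means of 56.9 and 68.3 TPM in the intact and injured wild type. In intact and injured mutants its means were 53.6 and 81.4 TPM. The 6 cartilage matrix markers of the disc had a sum of 4876 to 19163 TPM, although Col9a1 among them lay at only 0.580 to 12.6 TPM. With injury in mutants Comp of that list fell and Hapln1 rose. Of 5 notochordal markers 4 fell in mutants, and of 5 annulus and tendon markers 3 fell, where 17.7% of all tested genes were called lower. Adam8 itself, the mutated gene, lay at 0.956 to 2.97 TPM in intact discs and at 3.52 to 264.1 TPM in injured discs, which does not test the genotype labels because the allele need not alter its level.

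STAT proteins bind DNA as pairs at a palindrome whose general form is TTCNNNGAA, where N is any base. The sequences that bear on the feedback genes are shown because 2 of the members, Socs3 and Cish, carry such a stretch in the window from 250 bases before to 50 after a RefSeq gene start (RefSeq, GRCm38.p6). Windows were at hand for 7 of the 8 genes, with 2 for Pim1 and none for Socs2. The general form lay in 8.3% of all 32851 windows and the tighter form TTCCNGGAA, a subset of it, in 1.15%. Both forms read the same on either strand. Capitals mark the matches.
Socs3, chr11:117969452-117969616, minus strand: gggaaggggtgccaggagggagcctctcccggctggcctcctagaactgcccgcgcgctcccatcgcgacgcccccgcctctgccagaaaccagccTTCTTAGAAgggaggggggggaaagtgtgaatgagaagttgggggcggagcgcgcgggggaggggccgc
Cish, chr9:107296656-107296685, plus strand: gttTTCCTGGAAagTTCTTGGAAatctgtc
The Socs3 match begins 154 bases before the RefSeq start, and the start of the protein-coding GENCODE transcript lies another 180 bases downstream. The Socs3 window ends 50 bases after the RefSeq start, so the stretch from there to the GENCODE start was not searched. In Cish the first match begins at the RefSeq start itself and the second 12 bases into the transcript, with 2 bases between them. GENCODE places its protein-coding Cish starts at -633, 51 and 253 bases from the RefSeq start. The first Cish match also has the tighter form, and the Socs3 match does not. No match was found in the windows of Socs1, Stat3, Jak1, Jak2 and Pim1, which says only that these letters are not in those windows. Of 15 genes with a window among the 19 STAT3 target genes described below, 1, Icam1, held a match, so the motif is not a feature that those genes share within these windows.

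With disc injury 6 of the 7 genes rose in Adam8EQ mutants, namely Socs3, Pim1, Socs2, Stat3, Jak2 and Jak1, and Socs1 did not pass the test. In the wild type none of the 7 passed. The rises ran from 7.98-fold for Socs3, by the ratio of mean TPM, to 1.35-fold for Jak1. Changes are given below as mean differences in log2(TPM + 1), on which the change of low genes appears too small. The standard error beside them is that of the gene alone, with its spread pooled over the 4 groups. Between intact groups it thus also carries the spread of injured mice. The adjusted p is that of limma over all tested genes. It uses a spread drawn toward that of other genes of like level, so it does not follow from the printed standard error. The background was wide in mutants, where 13.1% of tested genes were called higher and 17.7% lower, and narrow in the wild type, where 0.107% were called higher. Each of the 6 genes that rose had injured and intact mutants that did not overlap, as had 12% of tested genes in that direction. In the wild type all 7 differences were positive, 4 had an unadjusted p under 0.05 (as had 17.2% of tested genes in either direction) and 3 had groups that did not overlap (9.22% of tested genes in that direction). The median change of all tested genes was -0.08 in mutants and 0.01 in the wild type.

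**Figure D1:**
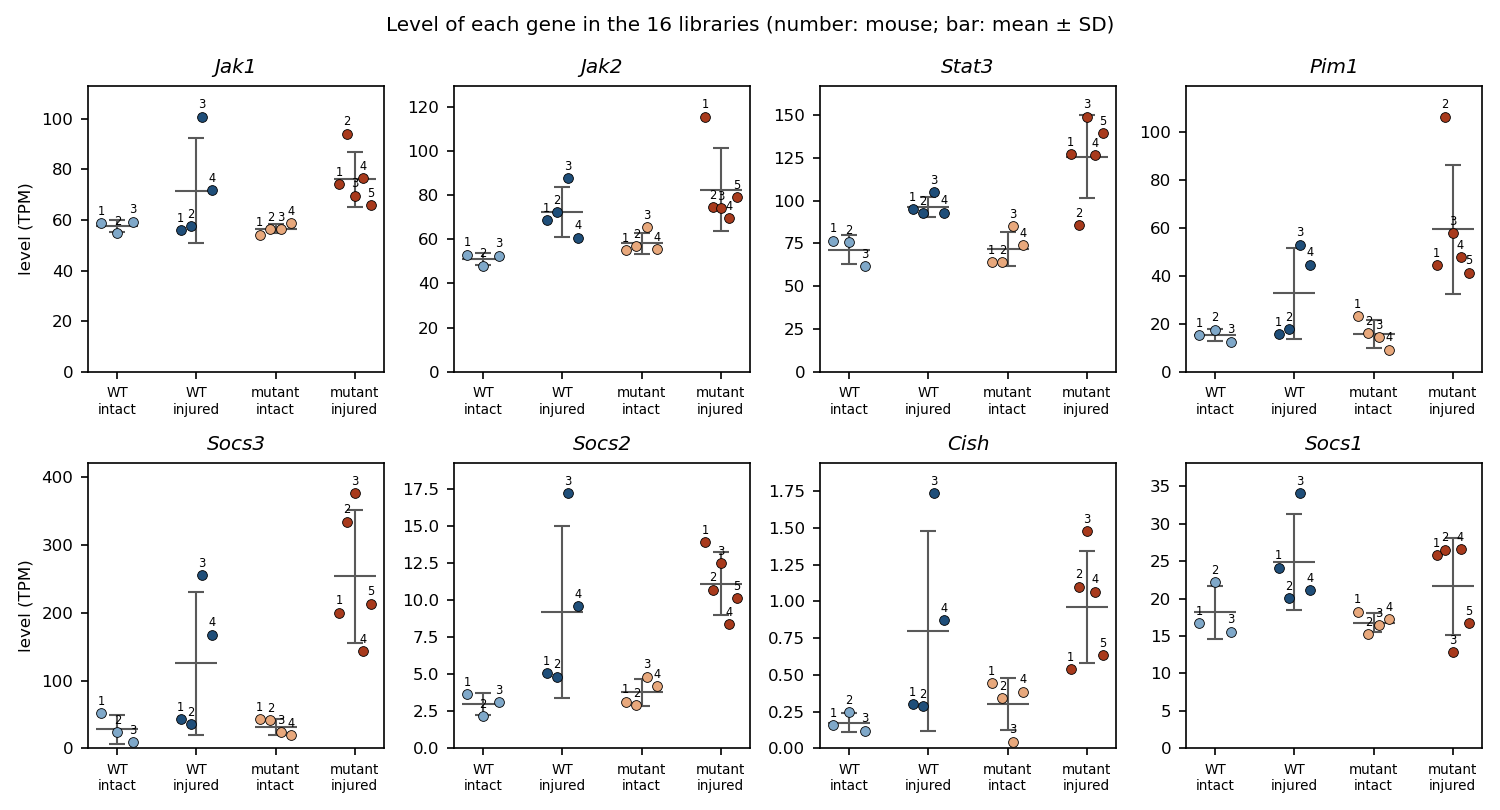
Level of each gene in TPM (vertical axis, from 0) in the 4 groups (horizontal axis), 1 numbered point per mouse, with the mean and SD of each group. Socs3, Pim1 and Socs2 in injured wild-type mice 3 and 4 lie far above those in mice 1 and 2, and the 5 injured mutants lie above the 4 intact mutants for each gene except Socs1.

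JAK1 and JAK2 are the kinases at the head of the pathway. Jak1 (ENSMUSG00000028530, GRCm38 chromosome 4, 101152367 to 101265282, minus strand, protein coding) held 58.8, 54.9 and 59.4 TPM in intact wild-type mice 1 to 3. Injured wild-type mice 1 to 4 held 55.9, 57.6, 100.9 and 71.9 TPM. Intact mutants 1 to 4 held 54.3, 56.5, 56.5 and 58.7 TPM, and injured mutants 1 to 5 held 74.2, 94.1, 69.6, 76.6 and 65.9 TPM. Injured wild-type mice 1 and 2 sat among the intact mice, mouse 3 was the highest of all 16, and each injured mutant was above every intact mutant. The rise in mutants was 0.41 ± 0.15 (SE, limma adjusted p 0.043856), just inside the threshold of 0.05, and 12 of 19 other settings left it outside, with adjusted p between 0.0168 and 0.409. The wild-type difference was 0.27 ± 0.17 (SE, limma adjusted p 0.413).

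Jak2 (ENSMUSG00000024789, chromosome 19, 29251828 to 29313080, plus strand, protein coding) lay at levels close to those of Jak1. It measured 53.0, 48.0 and 52.5 TPM in intact wild-type mice and 68.5, 72.1, 87.8 and 60.7 TPM in injured ones. Intact mutants had 55.2, 56.8, 65.4 and 55.6 TPM, and injured mutants had 115.5, 74.4, 73.9, 69.6 and 79.0 TPM. In contrast to Jak1, injured wild-type mice 1 and 2 stood above all intact wild-type mice, so that neither genotype had overlapping groups. Jak2 rose by 0.47 ± 0.14 in mutants (SE, limma adjusted p 0.0179), and the wild-type difference was 0.48 ± 0.16 (SE, limma adjusted p 0.175). Within mutants named M Jak2 was not called (limma adjusted p 0.242). The ratio of Jak1 to Jak2 was 1.11 to 1.14 in intact wild-type mice, 0.864 to 1.06 in intact mutants, 0.799 to 1.18 in injured wild-type mice and 0.643 to 1.27 in injured mutants. Intact mutants were above intact wild-type mice for Jak2 without overlap (2.77% of tested genes in that direction), at 0.18 ± 0.16 (SE, limma adjusted p 1).

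STAT3 carries the signal to the nucleus. Stat3 (ENSMUSG00000004040, chromosome 11, 100885098 to 100939540, minus strand, protein coding) was the most abundant of the 8 genes in intact discs, at 76.7, 75.8 and 61.8 TPM in the wild type and 64.1, 64.2, 85.3 and 73.9 TPM in mutants. Injured wild-type mice held 94.9, 92.9, 104.8 and 93.0 TPM, a spread of 5.69 TPM (SD, n = 4). Injured mutants held 127.3, 85.7, 149.1, 126.5 and 139.4 TPM. All 4 injured wild-type mice were above all 3 intact ones, mice 1 and 2 included, and 4 of 5 injured mutants were above every wild-type library. Injured mutant mouse 2, with the highest macrophage marker sum of all libraries (7655 TPM), had the lowest Stat3 of its group, and mouse 5, with the lowest sum of its group (774.9 TPM), had the second highest. Injured wild-type mouse 3, with the highest sum of its group (3493 TPM), had the highest Stat3 there. The part of macrophages in the Stat3 values was not tested. The rise in mutants was 0.78 ± 0.15 (SE, limma adjusted p 0.0016551), and it passed the threshold in all 19 other settings. The wild-type difference was 0.43 ± 0.17 (SE, limma adjusted p 0.215). Exons of Stat3 share 72 bases with Stat5a on the opposite strand (22.7 TPM on average), and whether the counting used strand is not given in the sources used here.

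PIM1 is a serine/threonine kinase that promotes cell survival and growth and is switched on through its transcription. Pim1 (ENSMUSG00000024014, chromosome 17, 29490753 to 29496112, plus strand, protein coding) measured 15.4, 17.6 and 12.6 TPM in intact wild-type mice and 23.3, 16.2, 14.6 and 9.28 TPM in intact mutants. In injured wild-type mice it measured 15.8, 17.7, 53.1 and 44.8 TPM, and in injured mutants 44.4, 106.6, 57.8, 47.9 and 41.3 TPM. Injured wild-type mice 1 and 2 were level with intact mice, and mice 3 and 4 lay within the range of the injured mutants. The rise in mutants was 1.82 ± 0.40 (SE, limma adjusted p 0.0029314) and the wild-type difference 0.88 ± 0.46 (SE, limma adjusted p 0.297). Pim1 was not called within mutants named A8 (limma adjusted p 0.0689). Among its relatives, Pim2 rose in injured mutants by 0.84 ± 0.30 (SE, limma adjusted p 0.0355) and Pim3 fell by 0.73 ± 0.25 (SE, limma adjusted p 0.0291), and neither passed in the wild type. Pim2 was not called with no filter or without intact mutant 1, 2 or 4 or injured mutant 1, 2 or 3 (limma adjusted p up to 0.087 with a mouse left out). Pim3 was not called with the replicate block or without intact mutant 3 or 4 or injured mutant 2 or 3 (limma adjusted p up to 0.0844 with a mouse left out), and neither was called within mutants of either naming. Pim1 shares 488 exon bases with the antisense gene Gm26885, which averaged 1.67 TPM.

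Socs3, the feedback inhibitor of receptors that signal through gp130, had the largest change of the 8 genes in mutants. Socs3 (ENSMUSG00000053113, chromosome 11, 117966079 to 117970047, minus strand, protein coding) held 51.4, 24.0 and 8.72 TPM in intact wild-type mice and 43.0, 41.6, 23.6 and 19.1 TPM in intact mutants. Injured wild-type mice held 42.6, 36.0, 256.0 and 167.7 TPM. Injured mutants held 200.1, 334.5, 376.8, 143.6 and 213.8 TPM. Injured wild-type mice 1 and 2 were below the highest intact mouse of their genotype, and mice 3 and 4 lay within the range of the injured mutants. The rise in mutants was 2.95 ± 0.64 (SE, limma adjusted p 0.0025831). It was not called within mutants of either naming alone (limma adjusted p up to 0.0964). The wild-type difference, 1.97 ± 0.73 (SE, limma adjusted p 0.183), did not pass.

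Among the 7 genes Socs3 also had the widest range between intact mice. The 3 intact libraries with the most Socs3 (51.4, 43.0 and 41.6 TPM) were the 3 with the most Fos, an immediate early gene, at 1079 TPM in wild-type mouse 1, 393 TPM in mutant 1 and 381 TPM in mutant 2. The other 4 intact libraries held 20.9 to 37.8 TPM of Fos. Both high mutants are those whose names begin with A8. Junb, another immediate early gene, was high in wild-type mouse 1 alone (243 TPM against 58.3 to 90.9 TPM in the other 6). These genes were singled out after their values were seen, and the part of Fos-high libraries or of the naming in the Socs3 values was not tested.

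SOCS2 restrains growth hormone signalling. Socs2 (ENSMUSG00000020027, chromosome 10, 95385362 to 95417180, minus strand, protein coding) was low in intact discs, at 3.63, 2.18 and 3.09 TPM in the wild type and 3.14, 2.90, 4.84 and 4.19 TPM in mutants. Injured wild-type mice held 5.07, 4.82, 17.2 and 9.59 TPM, and injured mutants 13.9, 10.7, 12.5, 8.37 and 10.1 TPM. Groups did not overlap in either genotype, since even injured wild-type mice 1 and 2 lay above every intact wild-type mouse. By the ratio of mean TPM the difference was about equal in the genotypes, 3.09-fold in the wild type and 2.95-fold in mutants. On the log2 scale Socs2 rose by 1.34 ± 0.30 in mutants (SE, limma adjusted p 0.0043440), and the wild-type difference was 1.21 ± 0.34 (SE, limma adjusted p 0.137). Within mutants named M Socs2 was not called (limma adjusted p 0.186). Each library held 66 to 766 implied reads of Socs2.

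Cish (ENSMUSG00000032578, chromosome 9, 107296026 to 107302784, plus strand, protein coding), which codes for CIS, was near the limit of detection. It measured 0.159, 0.245 and 0.121 TPM in intact wild-type mice and 0.299, 0.288, 1.74 and 0.871 TPM in injured ones. Intact mutants had 0.441, 0.343, 0.046 and 0.386 TPM, and injured mutants had 0.538, 1.10, 1.48, 1.07 and 0.635 TPM. These values rest on 1 to 8 implied reads per intact library and 5 to 37 per injured one. Each injured mouse was above each intact mouse of its genotype. Neither the mutant difference of 0.58 ± 0.22 (SE, limma adjusted p 0.0824) nor the wild-type one of 0.54 ± 0.25 (SE, limma adjusted p 0.322) passed. The log2(TPM + 1) scale compresses both, since the ratios of mean TPM were 3.17 and 4.57.

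Socs1 (ENSMUSG00000038037, chromosome 16, 10782240 to 10785536, minus strand, protein coding) codes for the inhibitor best known for curbing interferon signalling. It held 16.7, 22.2 and 15.6 TPM in intact wild-type mice and 24.1, 20.03, 34.1 and 21.1 TPM in injured ones. Intact mutants held 18.2, 15.2, 16.5 and 17.3 TPM, and injured mutants 25.7, 26.5, 12.8, 26.6 and 16.7 TPM. Injured mutants were split, with 3 mice above all intact mutants, mouse 3 below them and mouse 5 among them. Mouse 3 was also the mutant with the highest Socs3. Neither the mutant difference of 0.30 ± 0.22 (SE, limma adjusted p 0.311) nor the wild-type one of 0.42 ± 0.25 (SE, limma adjusted p 0.379) passed.

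**Figure D2:**
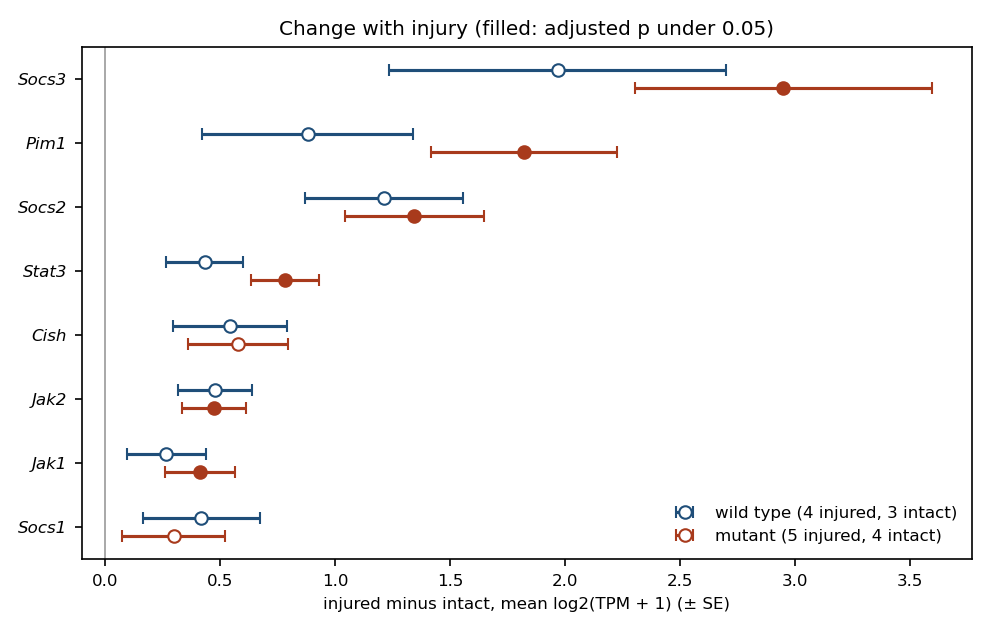
Injured minus intact difference of mean log2(TPM + 1) (horizontal axis, with the SE) of each gene, in the wild type (blue, 4 injured and 3 intact) and in mutants (red, 5 injured and 4 intact), filled where the limma adjusted p was under 0.05. The differences of the 7 counted genes, and that of Cish beside them, are above 0 in both genotypes, 6 are filled in mutants and none in the wild type.

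The order of the genes by TPM changed with injury. That order depends on the exon length used for each gene, which was 9527 bases for Stat3 and 2891 for Socs3. In intact discs of both genotypes Stat3, at a mean of 71.4 TPM in the wild type and 71.9 TPM in mutants, stood above Jak1 and Jak2, although the ranges of Stat3 and Jak2 met in intact mutants, and Socs3 stood below these kinases at 28.1 ± 21.6 TPM (SD, n = 3) and 31.8 ± 12.2 TPM (SD, n = 4). Socs1 and Pim1 came next and did not differ beyond their spread, and Socs2 and Cish were lowest. In injured mutants Socs3 headed the list at 253.7 ± 97.8 TPM (SD, n = 5), followed by Stat3 at 125.6 ± 24.2 TPM (SD, n = 5), with Socs3 above Stat3 in each of the 5 mice. Jak2 and Jak1 followed at 82.5 ± 18.8 and 76.1 ± 10.9 TPM (SD, n = 5 each), which did not differ beyond their spread, nor did Pim1 at 59.6 ± 26.98 TPM (SD, n = 5) stand clear of Jak1. In the injured wild type the mean of Socs3 was 125.6 ± 106 TPM (SD, n = 4), an average of 2 low and 2 high mice. Stat3 (96.4 TPM), Jak2 (72.3 TPM) and Jak1 (71.6 TPM) followed, then Pim1 (32.8 TPM), Socs1 (24.8 TPM), Socs2 (9.17 TPM) and Cish (0.799 TPM).

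Within the SOCS family Socs3 and Socs2 rose with injury in mutants, and Socs4 to Socs7 did not pass. The ratio of Socs3 to Stat3 in TPM, whose size depends on the exon length used for each gene, was 0.258 to 0.670 in intact mutants. It was 1.13 to 3.90 in injured mutants. In the wild type this ratio was 0.141 to 0.671 in intact mice and 0.388 to 2.44 in injured mice. Socs3 outnumbered Socs1 by 1.10 to 2.73 times in intact mutants and 5.401 to 29.4 times in injured ones. In the wild type the ratio of Socs3 to Socs1 was 0.560 to 3.08 in intact mice, with Socs3 below Socs1 in mouse 3, and 1.77 to 7.96 in injured mice. Of the summed TPM of the 8 SOCS genes (Socs1 to Socs7 and Cish), Socs3 made up 11.0% to 21.4% in intact mutants and 45.6% to 67.4% in injured mutants, against 5.34% to 24.7% and 18.8% to 56.8% in the intact and injured wild type. Socs4, Socs5, Socs6 and Socs7 had mean levels of 20.9 to 49.6 TPM over the groups. None of the 4 passed in any comparison, with changes in injured mutants of 0.15 ± 0.11 for Socs4, 0.35 ± 0.16 for Socs5, -0.14 ± 0.06 for Socs6 and 0.04 ± 0.07 for Socs7 (SE, limma adjusted p 0.106 to 0.752).

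**Figure D3:**
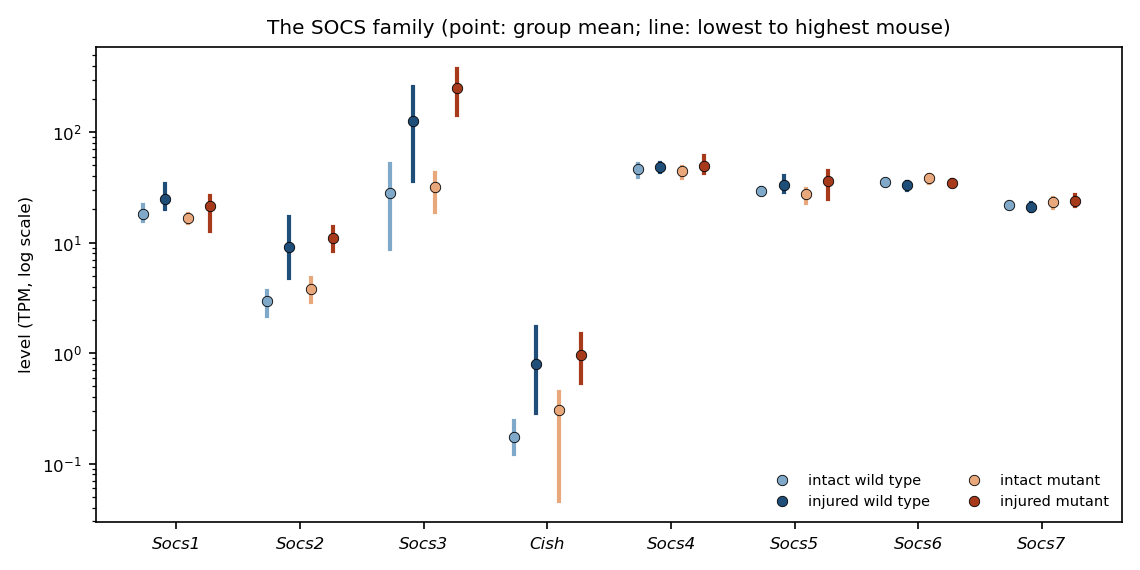
Mean level in TPM (vertical axis, log scale) of the 8 SOCS family genes in the 4 groups, with lines from the lowest to the highest mouse. Socs3 goes from 31.8 TPM in intact mutants to 253.7 TPM in injured mutants, while Socs4 to Socs7 stay between 20.9 and 49.6 TPM in every group.

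Seen mouse by mouse, injured wild-type mice 1 and 2 did not stand with the intact mice for all genes. Relative to the mean intact wild-type library, Stat3 was higher by 0.41 and 0.38 in these mice on the log2 scale, Jak2 by 0.42 and 0.49 and Socs2 by 0.63 and 0.57. Socs3 differed by 0.90 and 0.66, below intact wild-type mouse 1 at 1.17. Pim1 differed by 0.06 and 0.21, and Jak1 by -0.044 and -0.001. In mice 3 and 4 Socs3 was higher by 3.46 and 2.85, Pim1 by 1.75 and 1.51 and Socs2 by 2.21 and 1.43. Stat3 hardly followed this split, at 0.55 and 0.38. The numbers in the library names are consecutive for mice 1 and 2 and, further on, for mice 3 and 4. What these numbers stand for is not given, and their part in the split was not tested. The macrophage and neutrophil marker sums were higher in mice 3 and 4 (neutrophil markers at 178.4 and 133.8 TPM against 4.12 and 4.90 TPM), and their part in the values of Socs3, Pim1 and Socs2 was not tested. In bulk tissue more cells of a type and more RNA per cell cannot be told apart.

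**Figure D4:**
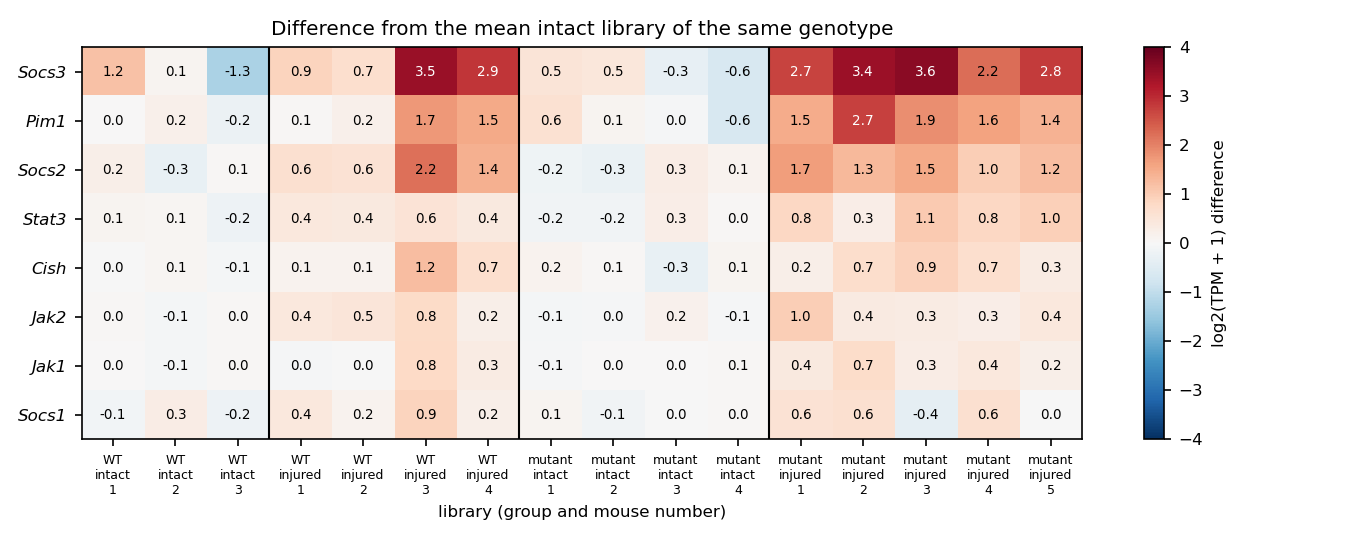
Difference of each gene (rows) in each library (columns, by group and mouse number) from the mean intact library of its genotype, in log2(TPM + 1). Injured wild-type mice 1 and 2 are near 0 for Pim1 and Jak1 and between 0.38 and 0.63 for Stat3, Jak2 and Socs2, and Socs3 reaches 3.46 in injured wild-type mouse 3 and 3.61 in injured mutant 3.

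Between genotypes none of the 7 genes passed the test. In intact discs 0.0165% of tested genes were called in either direction, and the members ranged from -0.09 (Socs1) to 0.41 (Socs3), with 0 of 7 at an unadjusted p under 0.05 (3.78% of tested genes). In injured discs, where 0.918% of tested genes were called, the mutants were higher by 1.39 ± 0.64 for Socs3 (SE, limma adjusted p 0.199), by 0.94 ± 0.40 for Pim1 (SE, limma adjusted p 0.174) and by 0.36 ± 0.15 for Stat3 (SE, limma adjusted p 0.178). These 3 had an unadjusted p under 0.05, as had 20.3% of tested genes. Stat3 passed when the mutants were limited to those named M (0.52, SE 0.17, limma adjusted p 0.0473) and when injured mutant mouse 2 was left out (0.49, limma adjusted p 0.0298). Socs2, Jak1, Jak2 and Socs1 differed by 0.40, 0.12, 0.18 and -0.21 (limma adjusted p 0.469 to 0.688). Among injured wild-type mice alone Socs3 ran from 36.0 to 256.0 TPM, a range wider than the difference between the group means.

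Whether injury acted differently in the genotypes was tested by the interaction, and no gene of the 24188 passed (8.18% had an unadjusted p under 0.05, and none of the 7 members did). The change in mutants exceeded that in the wild type by 0.98 ± 0.98 for Socs3 (SE, limma adjusted p 0.795), by 0.94 ± 0.61 for Pim1 (SE, limma adjusted p 0.686) and by 0.35 ± 0.22 for Stat3 (SE, limma adjusted p 0.691). Jak2 and Socs2 had differences close to 0, at -0.01 ± 0.21 and 0.13 ± 0.46 (SE, limma adjusted p 0.996 and 0.952). A call in mutants beside none in the wild type therefore does not show that the response differed.

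Upstream of the kinases, cytokines that signal through STAT3 rose with injury in mutants. Of all tested genes 13.1% were called higher in mutants and 17.7% lower. Of 8 cytokine genes tested, 5 rose and none fell, led by Il11, which signals through gp130 (7.23 ± 0.78, SE, limma adjusted p 0.00011723), and Lif (3.99 ± 0.83, SE, limma adjusted p 0.0021306). Il6, Osm and Il10 reached 1 TPM in fewer than 3 intact libraries and so entered the test through the injured ones, and of the other 5 cytokines 3 rose, with a median change of 0.91. In the wild type 0 of 8 were called and 4 had an unadjusted p under 0.05, as had 17.2% of tested genes in either direction. Their receptors moved both ways in mutants, with 3 of 8 higher and 3 lower. Osmr, the oncostatin M receptor, rose by 1.36 ± 0.25 (SE, limma adjusted p 0.0012171) and Il10rb by 1.0003 ± 0.34 (SE, limma adjusted p 0.0247), whereas the leptin receptor Lepr fell by 3.11 ± 0.43 (SE, limma adjusted p 0.00031451) and Lifr by 0.94 ± 0.29 (SE, limma adjusted p 0.0152). Il6st, the shared chain gp130, had a mean of 203 to 230 TPM in every group and a mutant difference of -0.18 ± 0.08 (SE, limma adjusted p 0.150). Il11 was higher and Lepr lower in injured mutants than in the injured wild type, by 3.52 ± 0.78 and -1.94 ± 0.43 (SE, limma adjusted p 0.0373 and 0.0375). These calls were lost in 11 of 19 other settings for Il11 and 12 of 19 for Lepr. Both were lost without injured wild-type mouse 1, 2 or 4 or injured mutant 1, 3 or 5 (limma adjusted p up to 0.150), with no filter, with the replicate block, with only the groups compared and within mutants of either naming. In injured mutants against intact ones, Il10rb was not called without intact mutant 1, 2 or 3 (limma adjusted p up to 0.0583) nor Lifr without intact mutant 3 (limma adjusted p 0.0503).

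Among the other JAKs and STATs, Stat6, which serves interleukin-4 and interleukin-13, rose in injured mutants (0.48 ± 0.12, SE, limma adjusted p 0.0089554). Jak3, Tyk2, Stat2, Stat5a and Stat5b did not pass in any comparison. Of the 5 partners that join SOCS proteins in a ubiquitin ligase, the scaffold Cul5 alone rose (0.34 ± 0.08, SE, limma adjusted p 0.0175). Among 11 other negative regulators 6 rose and 2 fell, beside 13.1% and 17.7% of all tested genes. Ptprc entered the test through the injured libraries, and of the other 10 genes 5 rose and 2 fell. Ptprc (3.24 ± 0.71, SE, limma adjusted p 0.0027669) and Ptpn6 (2.75 ± 0.65, SE, limma adjusted p 0.0043009) rose most, both phosphatases of blood cells. Pias1 fell by 0.50 ± 0.10 (SE, limma adjusted p 0.0032260) and Pias3, which binds STAT3, by 0.35 ± 0.09 (SE, limma adjusted p 0.0158), a call that was lost without intact mutant 3 (limma adjusted p 0.0521).

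**Figure D5:**
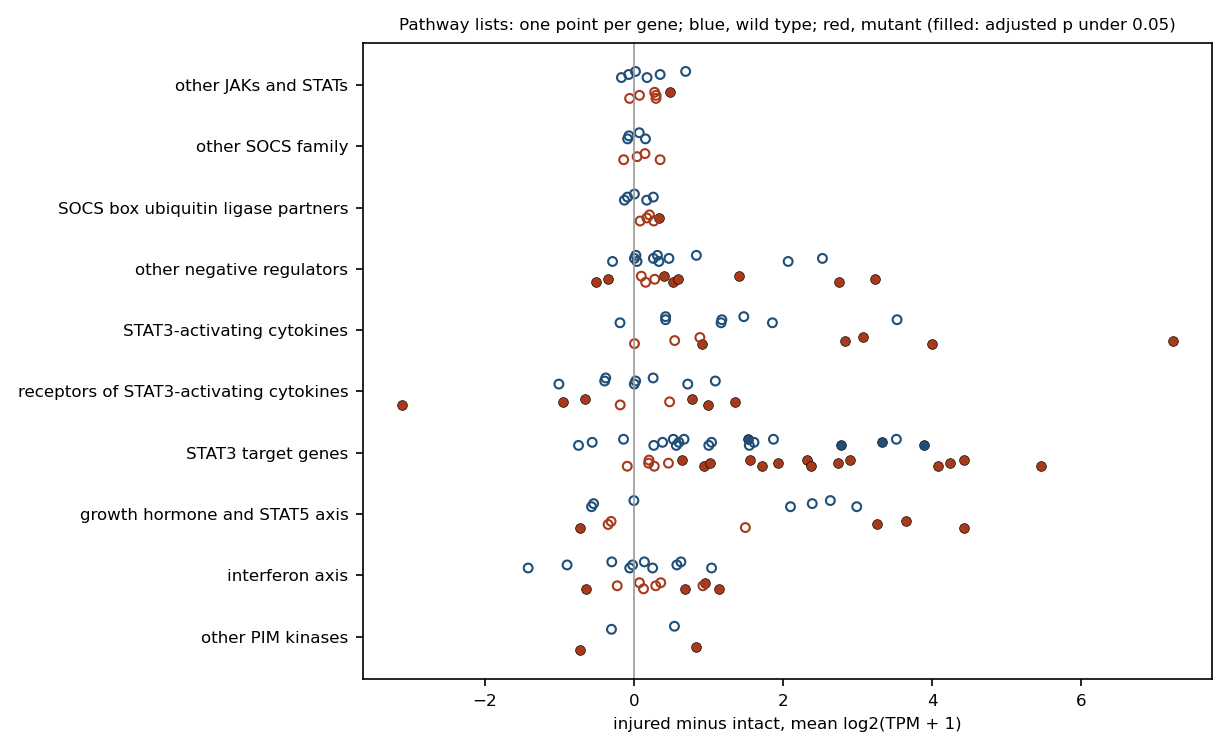
Injured minus intact difference of mean log2(TPM + 1) (horizontal axis) of genes in the 10 pathway lists (rows), in the wild type (blue) and in mutants (red), filled where the limma adjusted p was under 0.05. STAT3 target genes have 14 filled points of 19 in mutants and 4 in the wild type, and no gene of the other SOCS family is filled. Of all tested genes 13.1% were called higher in mutants and 0.107% in the wild type.

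Genes known as STAT3 targets outside the 8 rose in mutants for 14 of 19, with none lower. Of all tested genes 13.1% were called higher in mutants and 17.7% lower. The list was chosen with earlier results of these data known. Batf, Birc5 and Saa3 entered the test through the injured libraries, and of the other 16 genes 11 rose, with a median change of 1.48. The largest changes were those of Saa3 (5.46 ± 1.33, SE, limma adjusted p 0.0045520), an acute phase gene of a family whose members share reads, and Lcn2 (4.42 ± 0.48, SE, limma adjusted p 0.00011723), which codes for an iron-binding protein of innate immunity. In the wild type 0.107% of all tested genes were called higher. There 4 of 19 targets rose, namely Lcn2 (3.89 ± 0.55), Timp1 (3.33 ± 0.55), Bcl3 (2.78 ± 0.46) and Cebpd (1.54 ± 0.30), with limma adjusted p of 0.0069 to 0.0491. That count is 0 without intact wild-type mouse 1 or mouse 2, 1 without intact mouse 3 or injured mouse 4, and 0 when only the wild-type groups are fitted. Bcl2l1 was higher in injured mutants than in the injured wild type (0.74 ± 0.17, SE, limma adjusted p 0.0492), a call lost in 13 of 19 other settings, among them leaving out injured wild-type mouse 1, 2 or 4 or injured mutant 1, 3 or 5 (limma adjusted p up to 0.182). Many of these targets are also made by macrophages and neutrophils. Their markers rose in mutants for 5 of 6 and 3 of 5 tested, beside 13.1% of all tested genes. Csf1r was the macrophage marker that did not pass (0.44 ± 0.42, SE, limma adjusted p 0.410). Of the 7 neutrophil markers listed, Ly6g and Mpo were too low to be tested and Retnlg did not pass. Elane leaned the other way (-0.29 ± 0.26, SE, limma adjusted p 0.448), at a mean of 0.255 TPM in intact and 0 TPM in injured mutants. The 3 neutrophil markers that rose, Csf3r, S100a8 and S100a9, all entered the test through the injured libraries, and none of the 5 macrophage markers that rose did. The part of those cells was not tested.

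SOCS2 and CIS act on growth hormone and STAT5 signalling, and SOCS1 on that of interferons. With injury in mutants 13.1% of all tested genes were called higher and 17.7% lower. Of 7 genes of the growth hormone and STAT5 list 3 rose and 1 fell in mutants. All 3 rises were receptor chains that immune cells carry, Csf2rb, Il2rg and Il7r. Ghr, Igf1 and Igfals, genes of the growth hormone axis itself, did not pass. They differed by -0.31 ± 0.14, 1.5 ± 0.66 and -0.35 ± 0.31 (SE, limma adjusted p 0.117, 0.0749 and 0.427). Igf1 had mutant groups that did not overlap (12% of tested genes in that direction) and a wild-type difference of 2.1 ± 0.75 (SE, limma adjusted p 0.177). The part of immune cells in these changes was not tested. The shared chains Csf2rb (4.43 ± 0.86, SE, limma adjusted p 0.0014635) and Il2rg (3.65 ± 0.85, SE, limma adjusted p 0.0038575) led the rises, and Bcl6 fell by 0.73 ± 0.18 (SE, limma adjusted p 0.0069483). Il2rg and Il7r entered through the injured libraries, and of the other 5 genes 1 rose and 1 fell. Of 10 genes of the interferon list 3 rose and 1 fell, beside 13.1% and 17.7% of all tested genes. Gbp2 (1.14 ± 0.45, SE, limma adjusted p 0.0451) and Ifngr2 (0.96 ± 0.32, SE, limma adjusted p 0.0243) rose most, and Irf1 fell by 0.64 ± 0.18 (SE, limma adjusted p 0.0145). Gbp2 was not called in 10 of 19 other settings, among them leaving out intact mutant 1, 3 or 4 or injured mutant 1 or 3 (limma adjusted p up to 0.143), and Ifngr2 was not called without intact or injured mutant 2 (limma adjusted p up to 0.0635). No gene of either list passed in the wild type, in either genotype comparison or in the interaction.

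The genes most like each member were found by the smallest root mean square difference, in log2(TPM + 1), between profiles over the 16 libraries centred on their own mean, among 11936 candidates with a mean of at least 5 TPM. Near Stat3 were Clint1 (0.09) and Snx11 (0.13), against its own standard deviation of 0.39 over the libraries. For Socs3 the nearest were Hmga1b (0.51), which is near-identical to Hmga1 and so uncertain, Ier3 (0.51) and Plaur (0.53), against 1.59. Pim1 had Ehd1 (0.19), Kcnn4 (0.30) and Zdhhc14 (0.31), and Socs2 had Trpm6 (0.17), Slc25a5 (0.23) and Txnrd1 (0.23). Jak1 was nearest to Sh2b3 (0.09), itself an adaptor that damps JAK2 signalling, Ap2a2 (0.10) and Elmo2 (0.10), and Jak2 to Acap2 (0.11), Ndc1 (0.12) and Desi2 (0.13). Socs1 was nearest to Tubb5 (0.16), Scamp5 (0.19) and Tmem219 (0.21), and Cish to Dlst (0.18), Umps (0.18) and Ywhah (0.19), with own standard deviations of 0.35 and 0.40. None of these genes was another of the 8, and the likeness is a description over libraries that share injury and depth.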

How the data were processed

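Bulk RNA sequencing libraries were made from rRNA-depleted total RNA, per the labels' protocols; the molecule field reads polyA RNA. The authors deposited TPM values of 49315 genes. The submitters' processing notes name bcl2fastq 2.20 and GRCm38; aligner, counting and use of strand are not given in the sources used here. Members and lists were chosen with earlier results of these data known. Tests were limma 3.58.1 (R 4.3.3; lmFit, eBayes with trend) on log2(TPM + 1), for the 24188 genes that reached 1 TPM in 3 libraries or more, with all 16 libraries and 1 mean per group, with Benjamini-Hochberg adjustment and a threshold of 0.05. On simulated data with 200 genes changed by 2 (log2) among 24188, 93% were recovered for injury in mutants, with 7 false calls. The changed genes were drawn from those with a mean log2(TPM + 1) above 3 in intact wild-type mice. Each gene varied independently there, so the share recovered does not speak for low genes, smaller changes or the wild type. Positions came from GENCODE M21. Reads were implied from TPM and exon length, with 94.1% to 95.0% of values under 20 reads within 0.05 of a whole number, and were used only to describe depth. Named were all 8 members, the 3 genes most like each member, and Adam8. Of each list the 2 largest rises and falls called for injury in mutants were named, and lists of 4 or fewer tested genes whole. Fos, Junb, Il6st, Timp1, Bcl3, Cebpd, Bcl2l1, Il7r, Ghr, Igf1 and Igfals were added after their values were seen. So were Lyz2, Csf1r, neutrophil markers and genes named for the filter. Alternatives were pseudocount 0.1, no filter, a mean of 5 TPM, median-of-ratios and quantile scaling, sample weights, only the groups compared, a replicate block, mutants of 1 naming and each mouse left out. Of the genes the rule and lists name, 2 are not reported here.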

Additional observations from a re-analysis of the deposited data

Results flagged for a closer look

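Within the groups of 4 or 5 mice, 24 sets of values were examined for a mouse whose gap to the next, divided by the whole range of the group, exceeded Dixon's 95% value, and 3 were found, where chance gives about 1 in 20. Jak2 stood apart in intact mutant mouse 3 at 65.4 TPM, with the gap at 0.844 of the range, and in injured mutant mouse 1 at 115.5 TPM, at 0.797. Pim1 stood apart in injured mutant mouse 2 at 106.6 TPM, at 0.748. All 3 were high values. The library of injured mutant mouse 1 was the deepest, and injured mutant mouse 2 had the highest macrophage and neutrophil marker sums, 7655 and 919.6 TPM. The part of depth or of those cells in these values was not tested.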

How the results depend on the processing

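The 6 members called for injury in mutants numbered 5 without a filter, 5 with the replicate block (Jak1 lost, adjusted p 0.0595), 5 to 6 with a mouse left out, 2 among mutants named M (Stat3, Pim1), 3 among those named A8 (Stat3, Socs2, Jak2), and 6 in the other settings. Within M, Socs3 changed by 3.35 (limma adjusted p 0.0658), Socs2 by 1.02 (0.186), Jak2 by 0.29 (0.242) and Jak1 by 0.29 (0.409); within A8, Socs3 by 2.59 (0.0964), Pim1 by 1.77 (0.0689) and Jak1 by 0.58 (0.134). Between genotypes in injured discs the count was 0, 1 within M, and 0 to 1 with a mouse left out; in the other 3 comparisons it was 0 in every setting. Same-numbered mice are different animals, their deviations correlated at -0.217 to 0.078, and the replicate block changed no other call of a member. With the block, STAT3 targets called in the wild type went from 4 to 1. Some differences that no test called changed sign. In intact discs Pim1 was 0.0078 with median-of-ratios scaling, 0.036 with the block and 0.34 within A8 (-0.20 to 0.21 with a mouse left out); Stat3 was -0.0012 with quantile scaling, -0.054 with sample weights, -0.0032 with the block and -0.15 within A8 (-0.094 to 0.059); Socs3 was -0.072 within M (-0.22 to 0.99); Socs1 ran from -0.19 to 0.052. Socs1 in injured discs was 0.10 within A8. In the interaction, Jak2 was 0.093 with median-of-ratios scaling, 0.042 with sample weights and 0.24 within A8 (-0.13 to 0.091), Socs2 was -0.19 within M (-0.082 to 0.47), Cish was -0.17 within A8 (-0.10 to 0.26) and Socs1 was 0.20 within A8 (-0.26 to 0.046). For all of these the cause was not tested. Over all genes the calls for injury in the wild type numbered 28, 2 to 452 with a mouse left out (452 without injured mouse 1) and 4 to 77 otherwise; in mutants 7438, 5332 to 7330 and 725 to 8559; between genotypes 4, 1 to 7 and 2 to 8 in intact discs and 222, 7 to 2253 (2253 without injured wild-type mouse 3) and 2 to 1070 in injured discs; and for the interaction 0, 0 to 15 and 0 to 4. STAT3 targets called in mutants went from 14 to 4 within M and 9 within A8. Cytokines went from 5 to 1 and 3, and other negative regulators from 8 to 1 and 4. With the stricter filter 3 cytokines were called, since Il6 and Osm did not reach its mean of 5 TPM and were not tested. Depth limits Cish, with 1 to 37 implied reads per library.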
